A study of Oryctolagus cuniculus with 4 samples.

Results

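PTGS2 and BDKRB1, a prostaglandin and a kinin gene, were followed in the ligamentum flavum, an elastic band between the arches of adjoining vertebrae, in male rabbits aged 34 weeks. Every array probe annotated to a RefSeq transcript of either gene was taken, which gave 4 probes out of 43603, and 2 genes out of 1489 that could be named: 3 probes of PTGS2 (NCBI gene 100009248) and 1 probe of BDKRB1 (NCBI gene 100009198). Both genes were chosen on their ratios between these arrays, known from earlier results, so the values below are a description, with no test. The 4 samples are labelled as 16 weeks after surgery at 18 weeks of age, in which muscle over L3/4 was resected and a posterolateral fusion with instrumentation was made at L2/3 and L4/5. They were the level of intervertebral stress concentration (ISC level, L3/4), the control level L3/4 (L3/4 control), the fused levels (L2/3, L4/5) and the control levels of those (L2/3-L4/5 control). Each group was measured on 1 single-colour array of total RNA, and all 4 arrays lay on 1 slide. Whether the controls were operated on, and whether a sample holds RNA of several animals or levels, is not given in the sources used here, so stress or fusion and the surgery itself cannot be told apart.

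PTGS2 encodes cyclooxygenase-2, the inducible enzyme that turns arachidonic acid into the precursor of the prostaglandins, the lipid mediators of pain, fever and vascular leak. BDKRB1 encodes the kinin receptor B1, a G protein-coupled receptor for kinin fragments that lack the last arginine. In many mammalian tissues it is scarce until injury or cytokines such as interleukin-1 induce it, and kinin receptor signalling can in turn raise cyclooxygenase-2. In connective tissue, fibroblasts, endothelial cells and infiltrating phagocytes can express both genes.

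Values are log2 of the processed spot signal minus log2 of the 75th percentile of all probes on the same array, so that 0 is a signal at that percentile. A probe counts as measured on an array when the scanner software marked it as well above background. The ± behind a value is the software's own error estimate of a single spot, carried to the log2 scale. It covers the spot and not the animals, and with 1 array per group no spread between animals exists. A ratio is a difference of 2 such values, and 2-fold is a fixed size used for counting.

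The arrays differed in markers of other tissues. COL1A2, which encodes part of type I collagen, was bright on all 4 arrays, with a log2 value of 8.79 at the ISC level, 7.90 in the L3/4 control, 7.80 at the fused levels and 8.42 in the L2/3-L4/5 control. TNMD, the tendon and ligament marker tenomodulin, did not stand well above background on the fused array. The summed signal of 6 named neutrophil and marrow genes was 283.2 times the 75th percentile at the fused levels, against 5.69 times in their control, and 6.84 times at the ISC level, against 11.9 times in its control. Of these genes, MCP2 gave the largest part of the sum on every array. The summed signal of 10 named fast skeletal muscle genes was 768.1 times the percentile in the L2/3-L4/5 control and between 11.6 and 22.5 times on the other 3 arrays. In such bulk RNA, fewer cells of a type and less RNA per cell cannot be told apart.

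PTGS2 was brighter at both levels of the surgery model than in both controls by the probe with the highest mean over the 4 arrays, and by its other measured probe no ratio to a control reached 2-fold. The first of these probes, A_04_P041862, was the brighter one on the ISC and fused arrays and the dimmer one on both controls, so the rule of the highest mean chose it through the arrays where it was high. It had a processed signal of 56.0 ± 5.75 at the ISC level, against 12.9 ± 1.78 in the L3/4 control. On the same probe the signal was 81.0 ± 8.22 at the fused levels, against 12.7 ± 2.01 in the L2/3-L4/5 control. On the scaled log2 axis this is −0.74 at the ISC level, −2.05 in the L3/4 control, −0.08 at the fused levels and −2.52 in the L2/3-L4/5 control. The order of the levels was thus fused, ISC, L3/4 control and L2/3-L4/5 control, and both controls were the low arrays.

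The log2 ratio of this PTGS2 probe was 1.31 ± 0.25 for the ISC level over its control, a fold of 2.48, and 2.44 ± 0.27 for the fused levels over theirs, a fold of 5.44. Set against the other control array, the ratios were 1.78 ± 0.27 for the ISC level and 1.98 ± 0.25 for the fused levels, both at least 2-fold. Between the neighbours in the order, the ISC level lay below the fused levels by a log2 ratio of −0.67 ± 0.21, and the L3/4 control lay above the other control by 0.47 ± 0.30. Both steps are under 2-fold, and without replicates it cannot be said whether they exceed the spread between animals.

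The 3 PTGS2 probes belong to 1 RefSeq transcript and did not give the same picture. Probe A_04_P000852 was well above background on all 4 arrays, at −1.59 ± 0.16 at the ISC level, against −1.21 ± 0.16 in the L3/4 control, and at −1.83 ± 0.17 at the fused levels, against −1.98 ± 0.20 in the L2/3-L4/5 control. Its ratios were −0.38 ± 0.23 for the ISC level, opposite in sign to the first probe, and 0.14 ± 0.26 for the fused levels. Set against the other control array, its ratios were 0.39 ± 0.25 for the ISC level and −0.63 ± 0.24 for the fused levels, where the first probe had 1.78 and 1.98. The sign of this probe thus turned with the control used, at the ISC level and at the fused levels alike. The third probe, A_04_P000851, had processed signals between 1.38 and 2.01, was not well above background on any array and gives no ratio.

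A disagreement of that size between probes of 1 transcript was uncommon on these arrays. At the fused levels the measured PTGS2 probes lay 2.30 apart on the log2 scale, while the median gap over 4427 transcripts with several measured probes was 0.33, and 28 transcripts (0.632%) had a gap at least as wide. At the ISC level the PTGS2 gap was 1.69, the median gap 0.39, and 184 of 4381 transcripts (4.20%) had a gap at least as wide. Where the probes lie on the transcript is not analysed here, so the PTGS2 differences rest on 1 of its 2 measured probes.

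BDKRB1 was higher at the ISC level and lower at the fused levels than in either control, on its single probe A_04_P002666. Its processed signal was 77.6 ± 7.88 at the ISC level, against 17.1 ± 2.10 in the L3/4 control. At the fused levels the signal was 6.79 ± 1.57 and not well above background, against 25.6 ± 3.02 in the L2/3-L4/5 control. On the scaled log2 axis BDKRB1 was at −0.27 at the ISC level, −1.64 in the L3/4 control, −3.65 at the fused levels and −1.50 in the L2/3-L4/5 control. The ISC array was the high one, the fused array the low one, and the 2 controls lay close together between them.

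The log2 ratio of BDKRB1 was 1.37 ± 0.23 for the ISC level over its control, a fold of 2.58, and 1.23 ± 0.22 over the other control, a fold of 2.35. Since the fused array had only a bound, BDKRB1 at the fused levels was below its level in their control, at least 4.33-fold lower, and at least 3.94-fold lower than in L3/4 control tissue. Such a bound sets the brighter value against the dim array's detection floor, its dimmest signal marked well above background (here 6.95), or the probe's own signal where that is higher. It leaves out the spot error, here ± 0.375 for the log2 ratio to the L2/3-L4/5 control, so "at least" is not a strict limit. The L3/4 control differed from the other control by −0.13 ± 0.25. Directly between the levels of the surgery model, the ISC array exceeded the fused array in BDKRB1 by at least 10.2-fold.

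**Figure D1:**
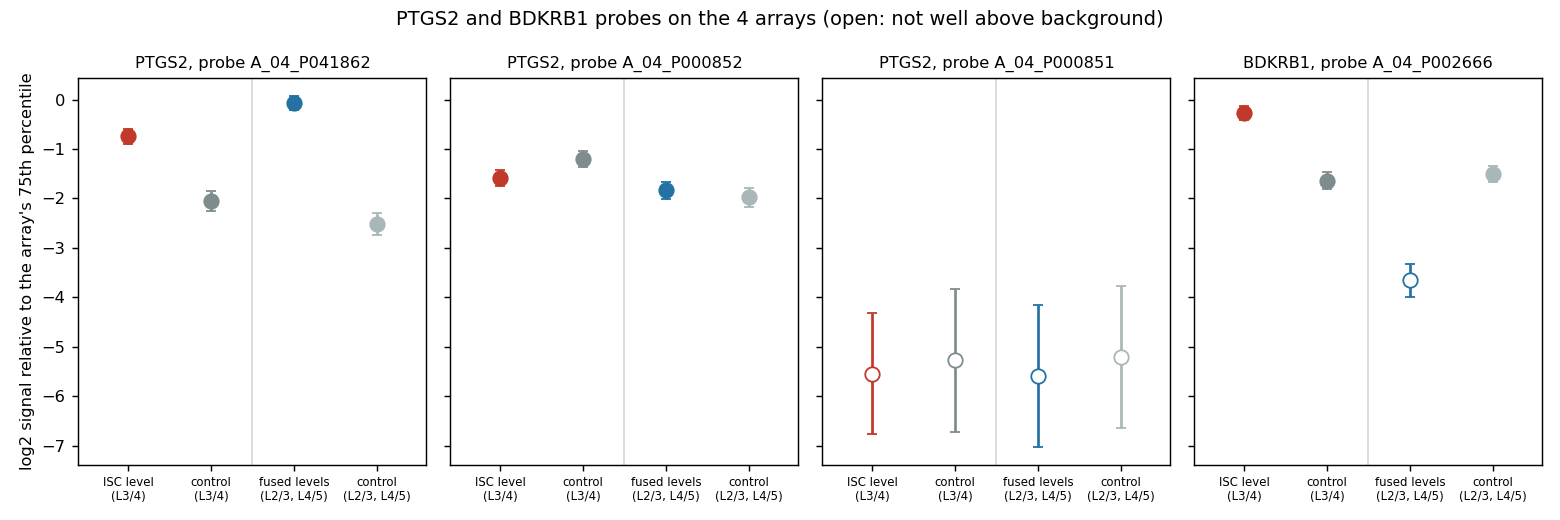
Log2 signal relative to the 75th percentile of each array (vertical axis) for the 3 PTGS2 probes and the BDKRB1 probe on the 4 arrays. Points are single arrays, bars the scanner software's spot error, and open points are not well above background. The first PTGS2 probe is high at the ISC and fused levels, the second varies between −1.98 and −1.21, the third is at background, and BDKRB1 is high at the ISC level and low at the fused levels.

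Differences of this size were not rare over the whole arrays. Of 13729 features (genes or transcripts, 1 probe each) measured on the ISC array and on its own control, 19.6% passed 2-fold, 9.08% upward and 10.5% downward. A ratio as high as that of PTGS2 or higher was held by 5.18% of these features, and one as high as that of BDKRB1 or higher by 4.73%. For the fused levels and their own control, 17.0% of 13717 features passed 2-fold, 7.84% upward and 9.15% downward, and 2.01% reached the PTGS2 ratio. Among features within 0.5 log2 units of the mean signal of PTGS2, 14.2% passed 2-fold upward and 12.1% downward for the ISC level, and 10.1% upward and 11.9% downward for the fused levels. Within 0.5 log2 units of the mean signal of BDKRB1, 13.0% passed 2-fold upward and 12.5% downward for the ISC level, and 3.72% upward and 11.8% downward for the fused levels. These shares cover features well above background on both arrays. BDKRB1 was not so on the fused array, so its fused shares leave out features like it.

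Crossing the controls changed these shares. For the ISC level over the L2/3-L4/5 control, 3.54% of 14114 features passed 2-fold upward and 5.03% downward, 0.376% reached the PTGS2 ratio of 1.78 and 1.91% the BDKRB1 ratio of 1.23. For the fused levels over the L3/4 control, 11.2% of 13352 features passed 2-fold upward and 13.0% downward, and 3.6% reached the PTGS2 ratio of 1.98. For the ISC level over the fused levels, where BDKRB1 passed 2-fold upward and PTGS2 did not pass in either direction, 6.99% of 14564 features did so upward and 7.76% downward. The 2 control arrays also differed from each other: of 13137 features, 8.39% were past 2-fold with the L3/4 control as the higher one and 9.19% with it as the lower one. Neither PTGS2, at 0.47, nor BDKRB1, at −0.13, was among them.

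**Figure D2:**
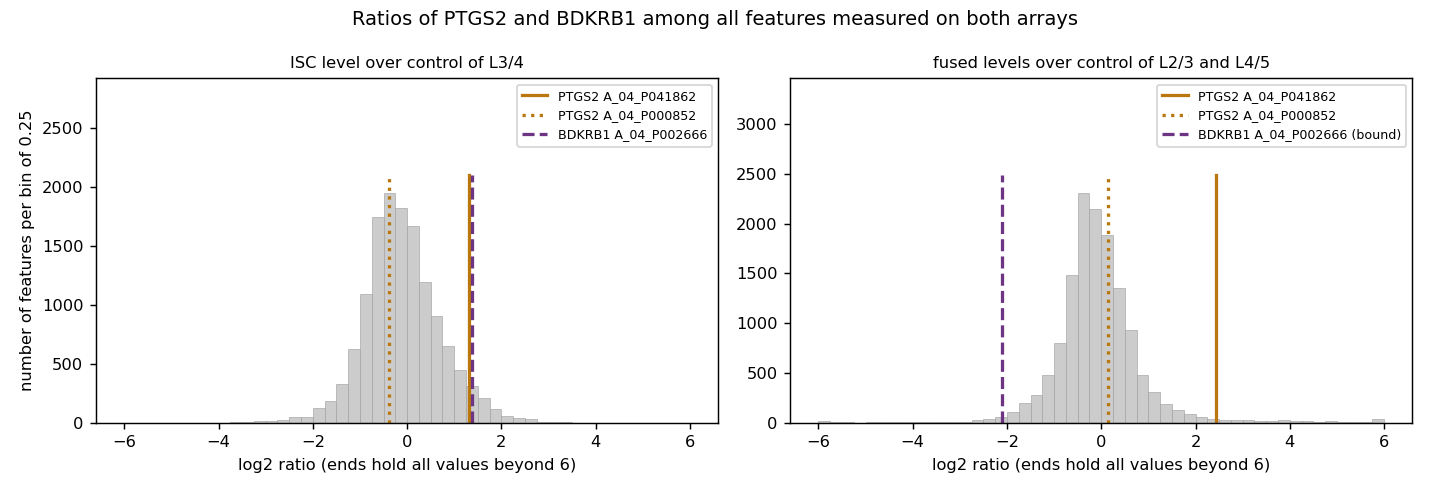
Number of features (vertical axis) by log2 ratio in bins of 0.25 (horizontal axis), for the ISC level over its control on the left and the fused levels over their control on the right. Lines mark the 2 measured PTGS2 probes and BDKRB1, whose value on the right is a bound. At the ISC level the first PTGS2 probe and BDKRB1 lie together at 1.31 and 1.37, and at the fused levels they lie on opposite sides at 2.44 and −2.11.

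Both comparisons were then read together. Among 13022 features well above background on the ISC array and both controls, 118 (0.906%) passed 2-fold upward in both comparisons with the own control, PTGS2 among them, and 174 (1.34%) passed it upward for the ISC level and downward for the fused levels, BDKRB1 among them. Asked of both controls at once, 43 features (0.33%) were 2-fold or more above them at the ISC and the fused levels. PTGS2, E2F6, HGF, RLA-DR-ALPHA and SPTLC1 were among the named ones. The opposite arrangement, 2-fold or more above both controls at the ISC level and as far below both at the fused levels, was held by 5 features (0.0384%), with BDKRB1 and COL8A1, which encodes a collagen VIII chain, the named ones. These counts use the contrasts by which both genes were chosen, and the named genes were listed after their values were seen. The filter did not ask for a signal well above background on the fused array. Where such a signal was missing and lay below that array's detection floor, the floor was used. BDKRB1 was counted in this way, so these shares are of another set of features than the shares for single comparisons.

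Likeness over the 4 arrays was measured as the root mean square difference of log2 values, each gene centred on its own mean, among 885 named genes well above background on all arrays. PTGS2 was represented by its first probe alone, and the second, which disagreed with it, was not compared. RLA-DR-ALPHA, the alpha chain of the class II molecule DR that presents peptides to T cells, was closest to the first PTGS2 probe, at 0.19. It had log2 values of 1.14 at the ISC level, against 0.00 in the L3/4 control, and 2.0 at the fused levels, against −0.10 in the L2/3-L4/5 control. Its 2 probes agreed, at 1.14 and 1.4 over the control for the ISC level, and at 2.10 and 2.31 for the fused levels. PHKA2, a regulatory subunit of phosphorylase kinase, came next at 0.29, with a log2 ratio of 0.92 at the ISC level and 1.88 at the fused levels. DNAJC25 was at 0.35, with a log2 ratio of 0.56 at the ISC level and 1.78 at the fused levels.

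COL8A1 was closest to BDKRB1, at 0.21, with log2 values of 6.03 at the ISC level, against 4.73 in the L3/4 control, and 3.16 at the fused levels, against 4.84 in the L2/3-L4/5 control. MGP, the matrix Gla protein that inhibits calcification, followed at 0.47, the cytokine gene IL15 at 0.52, STEAP2 at 0.54 and BGN, the small proteoglycan biglycan, at 0.54. The MGP ratios were 0.66 for the ISC level and −1.33 for the fused levels. The BDKRB1 value at the fused levels in this measure is that of a spot not well above background.

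**Figure D3:**
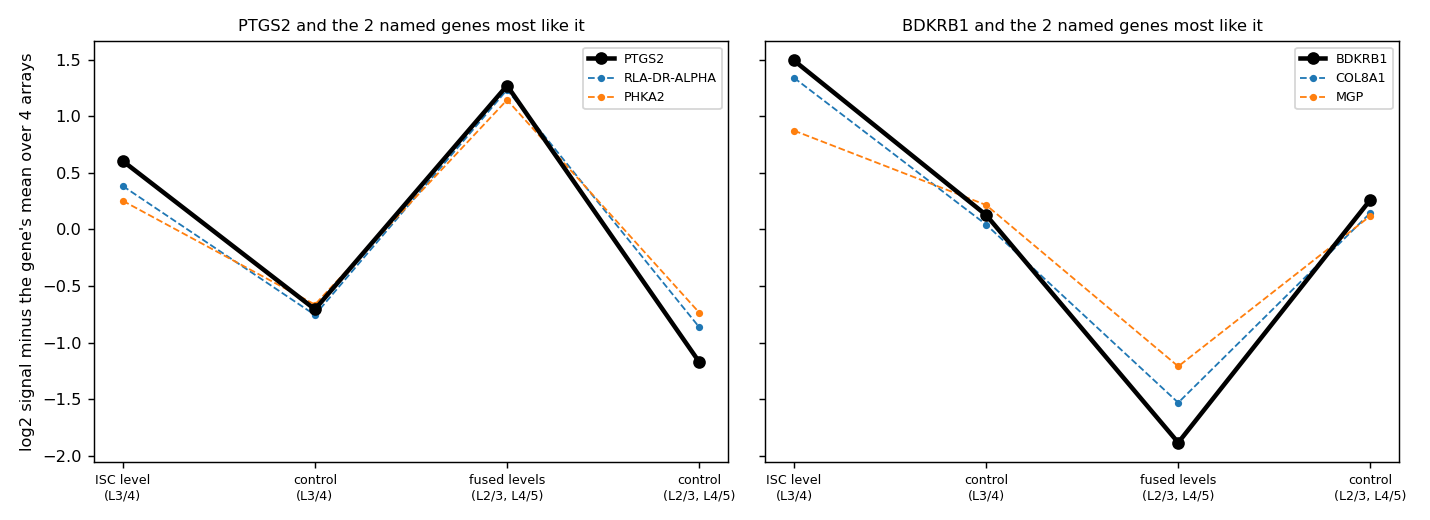
Log2 signal minus the gene's own mean over the 4 arrays (vertical axis) on each array, for PTGS2 (first probe) and BDKRB1 in black and the 2 named genes closest to each in colour. The genes near PTGS2 peak at the fused levels, and those near BDKRB1 are lowest there.

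Of 36 genes of the prostaglandin list, 12 could be named on the array, and 10 were measured for the ISC level and 11 for the fused levels. For the ISC level, 2 passed 2-fold upward (PTGS2 and CBR1) and 2 downward (PTGDS and PTGER4), with a median ratio of −0.12. Over all features 9.08% passed upward and 10.5% downward, with a median of −0.17. For the fused levels, 2 passed 2-fold upward (PTGS2 and PTGER3) and 0 downward, with a median of 0.39. Over all features 7.84% passed upward and 9.15% downward, with a median of −0.14. Without PTGS2, the counts were 1 upward and 2 downward with a median of −0.14 for the ISC level, and 1 upward and 0 downward with a median of 0.37 for the fused levels.

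Upstream of the cyclooxygenases, PLA2G4A, the cytosolic phospholipase that frees arachidonic acid, was at −1.17 at the ISC level and not well above background in the L3/4 control, so the ISC array was at least 3.95-fold above it. It was at −1.24 at the fused levels and −1.45 in the L2/3-L4/5 control, a log2 ratio of 0.21, so the L3/4 control was the array that stood apart. PTGS1, the constitutive cyclooxygenase, had ratios of −0.17 for the ISC level and −0.15 for the fused levels, and its values on the 4 arrays lay between −0.07 and 0.39. The 4 values of PTGS1 thus lay within 0.5 log2 units of each other, those of the first PTGS2 probe did not. Among enzymes downstream, PTGDS, which makes prostaglandin D, had a log2 ratio of −1.16 at the ISC level and 0.62 at the fused levels. CBR1, a reductase that acts on prostaglandins among other substrates, had a log2 ratio of 1.11 at the ISC level and 0.34 at the fused levels. Over the other control its ISC ratio was −0.31, and the L3/4 control, at −2.80, was the low array. The log2 ratio of AKR1B1, another such reductase, was −0.02 at the ISC level and −0.27 at the fused levels. PTGR1, which inactivates prostaglandins, had a log2 ratio of −0.10 at the ISC level and 0.39 at the fused levels, each the lowest of its 5 measured probes. The highest were 0.69 at the ISC level and 0.46 at the fused levels, and only the quoted probe was negative at the ISC level.

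The receptors for prostaglandin E did not share a direction. PTGER3, the receptor EP3, was at −1.33 at the ISC level, against −1.18 in the L3/4 control, and at 0.42 at the fused levels, against −1.26 in the L2/3-L4/5 control. Its ratio was −0.14 for the ISC level and 1.68, a fold of 3.21, for the fused levels, and only the fused array was high. Its other 2 probes gave bounds of at least 2.91-fold and at least 1.30-fold higher at the fused levels. PTGER4, the receptor EP4, was at −0.84 at the ISC level, against 1.14 in the L3/4 control, and at 0.97 at the fused levels, against 0.03 in the L2/3-L4/5 control. Its ratio was −1.98 for the ISC level, with 3 measured probes from −2.81 to −0.85, and 0.94 for the fused levels, with probes from 0.94 to 1.37. Against the other control the ISC level was at −0.87 for PTGER4, under 2-fold.

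PTGER2, the receptor EP2, had 6 probes of 1 transcript in 2 kinds. The brightest had a log2 value of 10.08 at the ISC level, against 10.62 in the L3/4 control, and at 10.00 at the fused levels, against 10.32 in the L2/3-L4/5 control, with ratios of −0.54 and −0.33. The other 5 probes lay between −4.48 and −3.20 at the ISC level, where 1 was well above background, against −1.54 to −1.29 in the L3/4 control. They lay between −5.88 and −4.21 at the fused levels, where 0 were well above background, against −2.80 to −2.33 in the L2/3-L4/5 control. All 5 were thus dimmer at the levels of the surgery model than in the controls, at the ISC level by a log2 ratio of −1.77 on the probe measured on both L3/4 arrays and by at least 4.76-fold to at least 5.84-fold on the other 4. The bounds for the fused levels ran from at least 1.76-fold to at least 2.44-fold lower. All 5 were also brighter in the L3/4 control than in the other control, by log2 ratios from 0.83 to 1.39. Over the other control, the ISC ratio of the probe measured there was −0.85, under 2-fold. Which kind of probe follows the EP2 transcript is not settled here.

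ANXA1, annexin A1, which restrains phospholipase activity, had log2 values between 4.79 and 5.54 on the 4 arrays, with a log2 ratio of 0.07 at the ISC level and 0.72 at the fused levels. ALOX15, the lipoxygenase that competes for arachidonic acid, was not well above background on any array.

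Of 19 genes of the kinin list, 5 could be named: BDKRB1, the tissue kallikrein KLK1 that releases kinins, and ACE, MME and ANPEP, peptidases that break kinins down. For the ISC level, 2 were measured and both were at least 2-fold higher, BDKRB1 and MME, the neutral endopeptidase neprilysin, where 9.08% of all features passed upward. BDKRB1 was chosen on this ratio, so MME is the single other gene behind that count. MME was at −1.19 at the ISC level, against −2.63 in the L3/4 control, a ratio of 1.44, and the ratio over the other control was 0.86. At the fused levels MME was at −1.90, against −2.06 in the L2/3-L4/5 control, a ratio of 0.15. ACE, angiotensin-converting enzyme, was at −1.52 at the ISC level and not well above background in the L3/4 control, at least 3.10-fold higher, and was −3.19 at the fused levels and not well above background in their control. A single ACE probe gave these values, and its other 5 probes were not well above background on any array. KLK1 was measured in the L3/4 control alone and lay at least 1.91-fold lower on the ISC array, while ANPEP was not well above background on any array.

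**Figure D4:**
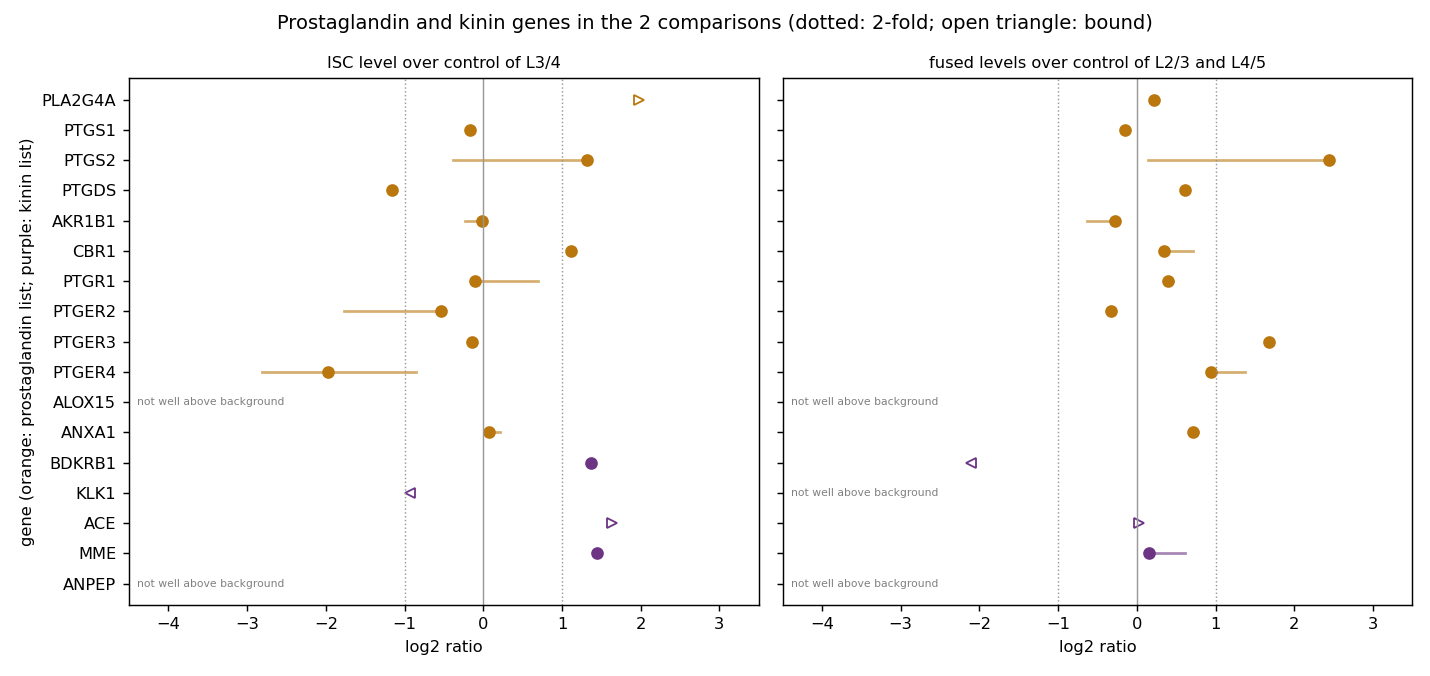
Log2 ratios (horizontal axis) of the named prostaglandin genes (orange) and kinin genes (purple), for the ISC level over its control on the left and the fused levels over theirs on the right. Dots are the probe with the highest mean, bars the range over measured probes and open triangles bounds. PTGS2 lies beyond 2-fold on both sides with a bar that reaches back to −0.38 and 0.14, while BDKRB1, ACE and MME lie to the right for the ISC level.

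Genes of inflammation, several of them known to induce PTGS2 and BDKRB1 or to be induced with them, differed between the levels. Of 37 listed genes 23 could be named. For the ISC level 17 were measured, 4 past 2-fold upward (SAA3, MMP13, TLR2 and CCL2) and 2 downward (LIF and IL1A), with a median of 0.11, while 9.08% of all features passed upward and 10.5% downward, with a median of −0.17. SAA3, an acute-phase protein gene, had a log2 value of 1.52 at the ISC level, against −2.03 in the L3/4 control, a ratio of 3.55. The log2 ratio was 2.25 for the collagenase gene MMP13, 1.60 for the receptor gene TLR2 and 1.54 for the chemokine gene CCL2. All 4 were also more than 2-fold lower in the L3/4 control than in the other control, with control ratios from −3.52 (SAA3) to −1.16 (CCL2). Among those lower at the ISC level, the cytokine gene LIF had a ratio of −1.77 and IL1A, interleukin-1 alpha, one of −1.49 on 1 measured probe of 4. Over the other control the LIF ratio was −1.01. IL1A was not well above background in the other control, and was at least 2.12-fold brighter in the L3/4 control. For the fused levels 15 were measured, 5 past 2-fold upward (IL1RN, IFNG, VCAM1, CXCL8 and PLAU) and 2 downward (TNFAIP6 and JUN), with a median of 0.54, while 7.84% of all features passed upward and 9.15% downward, with a median of −0.14. The log2 ratio was 2.79 for IL1RN, the interleukin-1 receptor antagonist, 2.42 for the interferon gene IFNG, 2.21 for the adhesion molecule gene VCAM1 and 1.05 for the neutrophil chemokine gene CXCL8. Lower at the fused levels were the hyaluronan-binding protein gene TNFAIP6, at −1.51, and JUN, a subunit of the transcription factor AP-1, at −1.01. The probes of TNFAIP6, from −1.99 to 0.14, and of PLAU, from −0.58 to 1.01, did not share a sign.

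Interleukin-1 beta is a known inducer of both genes. IL1B had a log2 value of −2.90 at the ISC level, against −2.52 in the L3/4 control, a ratio of −0.38 on 1 measured probe of 3. Between the same arrays the ratio was 1.31 for the first PTGS2 probe, −0.38 for the second and 1.37 for BDKRB1. At the fused levels IL1B was at 1.23 and it was not well above background in the L2/3-L4/5 control, at least 21.8-fold higher, beside a PTGS2 ratio of 2.44 on its first probe and a BDKRB1 signal not well above background. The part of IL1B in the PTGS2 and BDKRB1 ratios was not tested. TNF, IL6 and IL10 were not well above background on any array.

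Beside the PTGS2 ratio at the fused levels, all 6 named neutrophil and marrow genes were well above background on every array and 5 of the 6 passed 2-fold upward, with a median of 4.73, where 7.84% of all features did. The exception was CXCR1, with a log2 ratio of −0.66. The monocyte gene CD14 had a log2 value of 1.05 at the fused levels, against −0.02 in the L2/3-L4/5 control, and at 0.20 at the ISC level, against −0.51 in the L3/4 control. At the ISC level, where the PTGS2 ratio was 1.31, 0 of the 6 neutrophil and marrow genes passed 2-fold upward and 1 downward, with a median of −0.80, where 9.08% of all features passed upward and 10.5% downward. The 2 named haemoglobin genes had a median log2 ratio of 2.08 for the fused levels and −0.85 for the ISC level. Of the other monocyte and macrophage genes, CTSK, the protease cathepsin K, shared the direction of CD14 at the ISC level and not at the fused levels. The log2 ratios of CTSK were 1.27 at the ISC level and −0.54 at the fused levels. ACP5, tartrate-resistant acid phosphatase, was well above background on the ISC array alone. Its log2 value there, −3.43, lay below the detection floor of the L3/4 control, so no excess over that control is shown. The summed signal of the 3 genes, to which CTSK gave the largest part on every array, was 14.0 times the 75th percentile at the ISC level, against 6.09 times in the L3/4 control, and 8.92 times at the fused levels, against 10.9 times in the L2/3-L4/5 control. The summed signal of 4 adipocyte genes was 20.0 times the percentile at the fused levels, against 6.07 times in the L2/3-L4/5 control. The part of these cell types, and of the muscle signal in the L2/3-L4/5 control, in the PTGS2 ratios was not tested.

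Beside the BDKRB1 values, 1 of 7 ligament and fibroblast genes passed 2-fold upward for the ISC level (BGN, at 1.27 on its brighter probe and 0.47 on the other), and 3 of the 6 measured passed it downward for the fused levels, with a median of −0.81. Over all features 9.08% passed upward for the ISC level and 9.15% downward for the fused levels, so the single gene of 7 is near that share. Their summed signal was 742.3 times the percentile at the ISC level, against 627.7 times in the L3/4 control, and 574.4 times at the fused levels, against 716.4 times in the L2/3-L4/5 control. Endothelial genes, of which 4 could be named, had 2 past 2-fold downward and 0 upward for the ISC level, with a median of −1.02, where 10.5% of all features passed downward. These were SOX17 and KDR, the latter on 1 measured probe of 6, and the L3/4 control was the high array for both. Over the other control, 1 of 3 measured endothelial genes passed downward for the ISC level, with a median of 0.01. For 3 measured at the fused levels, 1 passed upward, VCAM1 at 2.21, while SELE was at 0.54, SOX17 at −0.04, and neither array measured KDR. The summed endothelial signal, to which VCAM1, an inducible gene also on the inflammatory list, gave the largest part on every array, was 2.10 times the percentile at the ISC level, against 2.87 times in the L3/4 control, and 7.44 times at the fused levels, against 2.09 times in the L2/3-L4/5 control. The part of these cells in the BDKRB1 ratios was not tested.

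Both genes were dim, and their ratios were smaller in size under 1 alternative that changed several processing steps at once. Which of those steps made the difference was not tested beyond quantile normalization alone. With normexp background correction of the median spot signals (offset 50) followed by quantile normalization, the ratios were 0.44 for PTGS2 and 0.50 for BDKRB1 at the ISC level, and 0.90 for PTGS2 and −0.43 for BDKRB1 at the fused levels, all under 2-fold and with the same signs. Quantile normalization of the processed signals alone gave 1.23 for PTGS2 and 1.32 for BDKRB1 at the ISC level, and 2.46 for PTGS2 and −2.17 for BDKRB1 at the fused levels. Here the BDKRB1 values at the fused levels are plain differences from a spot not well above background, and not bounds. The plain difference under the main scaling was −2.15. The mean over the 2 measured PTGS2 probes was 0.47 for the ISC level and 1.29 for the fused levels.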

How the data were processed

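Total RNA was copied into Cy3-labelled cDNA and hybridised to single-colour arrays, per the labels' protocols. Agilent Feature Extraction 12.0.3 produced the spot values, as the submitters' processing notes name it. The deposited intensities had their background subtracted and a spatial trend removed, and other deposited columns mark each spot as well above background or not, per the file headers. The authors' deposited value table, an alternative scaling, holds these intensities times 1 factor per array. Its direction and scale follow from that, how the factors were set is not given in the sources used here, and its medians were 515.5 (ISC), 442.3 (L3/4 control), 498.4 (fused) and 504.0 (L2/3-L4/5 control).

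Each log2 value was taken relative to the array's 75th percentile, which was 93.7 (ISC), 53.4 (L3/4 control), 85.4 (fused) and 72.7 (L2/3-L4/5 control). Control spots and 3 to 7 outlier spots per array were dropped, and 0 spots were saturated. Between 59.6% and 67.9% of probes were well above background, and repeated spots of a probe had a median SD of 0.10 to 0.14. The number of arrays limits the precision. RefSeq accessions gave symbols to 3792 probes (1489 genes) through the annotation of mOryCun1.1, whose build differs from that of the array, so it served for names only. The probe with the highest mean stands for a gene. Named genes are PTGS2, BDKRB1, the listed pathway, inflammatory and marker genes and genes from the 5 nearest to each, some of which are not reported here; the genes sharing a pattern were named after their values were seen. PTGS2, BDKRB1 and all lists were chosen with earlier results of these data known. Scaling and counting were tested on simulated data (Python 3.11.15, R 4.3.3, limma 3.58.1). Alternatives were other scalings, normexp on median spot signals followed by quantile normalization, probe rules, filters, fold sizes and the other control.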

Additional observations from a re-analysis of the deposited data

Results flagged for a closer look

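BDKRB1 went in opposite directions in the 2 comparisons, with a log2 ratio of 1.37 for the ISC level over its control and a bound of −2.11 for the fused levels over theirs. Each side is 1 array, and the difference between the comparisons was not tested.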

How the results depend on the processing

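Quantile normalization, centring on the median, the authors' scaling and the inclusion of outlier spots each moved the PTGS2 and BDKRB1 ratios by less than the spot error, with the same direction and side of 2-fold. Normexp on the median spot signals with an offset of 50, followed by quantile normalization, changes several choices at once and gave 0.44 for PTGS2 and 0.50 for BDKRB1 at the ISC level, 0.90 for PTGS2 and −0.43 for BDKRB1 at the fused levels, and 496 (ISC) and 693 (fused) features past 2-fold, in place of 2687 and 2330; the cause was not tested beyond quantile normalization alone, under which the ratios moved by less than the spot error. Averaging the PTGS2 probes gave 0.47 (ISC) and 1.29 (fused). The second PTGS2 probe, an alternative chosen after seeing the data, gave −0.38 (ISC), reversed, and 0.14 (fused); the cause was not tested. The other control gave PTGS2 ratios of 1.78 (ISC) and 1.98 (fused). Settings that change what is counted gave 4656 (ISC) and 4033 (fused) features when 1 array above background sufficed, 6093 and 5060 past 1.5-fold, and 800 and 963 past 3-fold. Of the ISC calls, 46.4% were upward; this was 58.9% under the authors' scaling (median of features shifted by 0.12), 63.7% under normexp (shifted by 0.11) and 57.6% when 1 array sufficed. Of the fused calls, 46.1% were upward, and 60.6% under normexp. No paired analysis was possible because each group has 1 array, so no replicate could be left out and no slide blocked. Background limits BDKRB1 at the fused levels to a bound, and its values there under the alternatives are plain differences from a spot not well above background.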
